A study of Mus musculus with 32 samples.

Results

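Transcripts of 7 genes of cholesterol synthesis, Hmgcs1, Idi1, Fdft1, Sqle, Dhcr7, Insig1 and Srebf2, were followed in RNA-seq of mouse microglia and lumbar spinal cord from the SOD1G93A model of amyotrophic lateral sclerosis. The genes were taken by symbol from the Ensembl rows of 3 deposited tables of estimated counts, in which they were 7 of 74021, 74016 and 74021 rows. All 7 passed the filter on low counts in each table, where 16508, 18669 and 17702 genes were tested. Of the 32 libraries, 14 came from CD11b+/CD45int microglia sorted from lumbar cord: 4 from WT mice, which lack the transgene, 5 from the LAG-3-low fraction of SOD1G93A microglia and 5 from their LAG-3-high fraction. The study's text places this sort at P140. A further 12 libraries came from SOD1G93A microglia that were LAG-3+/+ or LAG-3-/-, taken at P120 and P140, with 3 libraries per group. The last 6 libraries came from whole lumbar cord at P140, with 3 libraries of each LAG-3 genotype. Both LAG-3 genotypes were heterozygous for the human transgene of B6.Cg-Tg(SOD1*G93A)1Gur/J, which the human SOD1 promoter drives in all tissues, and the LAG-3 deletion was the germline allele of B6.129S6(Cg)-Lag3tm1Doi/J, which is not limited to microglia. No transgene-free mice were included in the stage and cord tables. Nothing in the sources says whether libraries of the same number in the LAG-3-low and the LAG-3-high fraction shared an animal, and if they did, p-values between those fractions do not reflect animals alone.

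Cholesterol is built from acetyl-CoA through mevalonate, isoprenoids and squalene. When sterol in the endoplasmic reticulum membrane is low, the escort protein SCAP carries SREBP-2, the product of Srebf2, to the Golgi, where it is cut and freed to enter the nucleus and to switch on genes of the pathway, its own gene included. Insig1 encodes the sterol-sensing anchor that holds SCAP and SREBP-2 back, and it is itself a target of SREBP-2. Hmgcs1 makes HMG-CoA, Idi1 interconverts the isoprenoid building blocks, Fdft1 is squalene synthase, Sqle is squalene epoxidase and Dhcr7 carries out the last reduction to cholesterol. In the cord most cholesterol is made by glia, oligodendrocytes during myelination above all, while microglia that clear myelin take up cholesterol and must store or export it. The 7 genes hold no uptake receptor, and genes of uptake, efflux and storage are given as lists beside them.

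In GRCm39 the genes lie on chromosome 13 (Hmgcs1, ENSMUSG00000093930, 120151915 to 120170470, and Idi1, ENSMUSG00000058258, 8935537 to 8942487, both on the plus strand), chromosome 15 (Sqle, ENSMUSG00000022351, 59186869 to 59203043, and Srebf2, ENSMUSG00000022463, 82031382 to 82093201, both plus), chromosome 5 (Insig1, ENSMUSG00000045294, 28276315 to 28283668, plus), chromosome 7 (Dhcr7, ENSMUSG00000058454, 143376740 to 143402149, plus) and chromosome 14 (Fdft1, ENSMUSG00000021273, 63382189 to 63417027, minus). The canonical transcripts were between 2590 bases (Idi1) and 5077 bases (Srebf2) long, so none of them was among the shortest quartile of genes tested.

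SREBP-2 acts on these genes through sterol regulatory elements next to CCAAT and GC boxes close to the start site. RefSeq promoter windows (GRCm38.p6, 250 bases before to 50 after each start) were found for 5 of the 7 genes, in 7 windows, because Dhcr7 has several annotated starts. The 250 bases upstream of the start are printed for the promoters that show the range of matches, all on the plus strand: Hmgcs1 at chr13:119690101-119690350, Insig1 at chr5:28071162-28071411, Idi1 at chr13:8885356-8885605, Srebf2 at chr15:82147019-82147268 and the start of Dhcr7 that lies farthest downstream at chr7:143829964-143830213. Capitals mark matches, on either strand, to the sterol regulatory element TCACNCCAC, the E-box CACGTG, the CCAAT box CCAAT and the GC box GGGCGG.
Hmgcs1: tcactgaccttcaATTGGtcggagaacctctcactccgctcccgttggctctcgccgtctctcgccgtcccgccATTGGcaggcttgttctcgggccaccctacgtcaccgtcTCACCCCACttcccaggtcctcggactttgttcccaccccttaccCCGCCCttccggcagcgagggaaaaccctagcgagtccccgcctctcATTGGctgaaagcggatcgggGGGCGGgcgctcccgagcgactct
Insig1: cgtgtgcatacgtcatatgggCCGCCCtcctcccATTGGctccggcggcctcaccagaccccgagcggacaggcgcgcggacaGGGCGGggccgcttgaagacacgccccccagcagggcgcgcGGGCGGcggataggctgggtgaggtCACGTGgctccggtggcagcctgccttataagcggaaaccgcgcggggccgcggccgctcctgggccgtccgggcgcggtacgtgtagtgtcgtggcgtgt
Idi1: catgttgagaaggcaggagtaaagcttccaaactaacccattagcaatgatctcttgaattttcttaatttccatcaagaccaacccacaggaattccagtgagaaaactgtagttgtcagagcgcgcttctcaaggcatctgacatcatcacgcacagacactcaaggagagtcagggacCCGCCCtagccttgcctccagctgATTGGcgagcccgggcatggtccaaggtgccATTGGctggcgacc
Srebf2: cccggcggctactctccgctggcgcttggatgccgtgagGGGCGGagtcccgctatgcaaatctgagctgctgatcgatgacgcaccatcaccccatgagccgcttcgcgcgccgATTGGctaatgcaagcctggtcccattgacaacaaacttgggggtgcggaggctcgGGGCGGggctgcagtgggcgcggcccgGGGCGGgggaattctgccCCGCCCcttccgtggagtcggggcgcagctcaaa
Dhcr7: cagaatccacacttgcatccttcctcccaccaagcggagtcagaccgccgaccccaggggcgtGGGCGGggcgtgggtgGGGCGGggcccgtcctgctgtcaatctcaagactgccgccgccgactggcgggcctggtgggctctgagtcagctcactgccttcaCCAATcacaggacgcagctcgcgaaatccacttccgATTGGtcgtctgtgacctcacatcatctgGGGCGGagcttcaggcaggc
The sterol regulatory element was matched in 1 of the 7 windows, that of Hmgcs1, 137 bases before the start, and in 1.24% of all 32851 windows. CCAAT was matched in 5 of the 7 windows against 37.4% of all windows, and GGGCGG in 6 of 7 against 35.7%. The E-box was matched in Insig1, 101 bases before the start, and in 1 other start of Dhcr7, against 7.15% of all windows. In Hmgcs1 the element lay between CCAAT boxes at 176 and 45 bases before the start. These are matches of letters in a window and not measured binding.

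Levels are CPM, the counts of a gene per 1000000 counts of its library after scaling of library sizes by TMM. Libraries held 9403286 to 22850356 counts in the LAG-3-sorted table, 23981240 to 49512341 in the stage table and 19429873 to 26994340 in the cord table. Lag3 itself was at 0.506 to 9.97 CPM in WT libraries, and at 34.7 to 57.7 CPM and 146 to 195 CPM in those sorted as LAG-3-low and as LAG-3-high. In LAG-3+/+ microglia of the stage table it was at 53.3 to 62.9 CPM at P120 and lower, at 24.4 to 28.0 CPM, at P140. It was at 0.0238 to 0.461 CPM in LAG-3-/- microglia, and in cord at 43.4 to 74.4 CPM in LAG-3+/+ against 5.49 to 5.71 CPM in LAG-3-/- libraries. The 7 microglial markers (P2ry12, Tmem119, Cx3cr1, Csf1r, Sall1, Aif1 and Trem2) were all detected in each sorted group. Their sum was 17750 to 21770 CPM in WT libraries, and 7293 to 11700 CPM and 10420 to 11660 CPM in the low and high fractions. Transcripts of 10 neutrophil markers summed to 5959 to 70350 CPM in WT libraries and 22770 to 66220 CPM in the low fraction, against 3.47 to 9.64 CPM in the high fraction, where Cd177, Lcn2 and Retnlg were at or under 3 counts. A gene was called where its adjusted p was under 0.1 (edgeR's quasi-likelihood test, Benjamini-Hochberg over all genes tested), and in the sorted and cord tables also where its log2 fold change exceeded 1 in size.

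Per kilobase of transcript, Hmgcs1 had the highest median of the 7 genes in every table, with 12.8 CPM per kb in the sorted libraries (0.857 to 20.1), 13.3 in the stage libraries (2.66 to 19.1) and 60.2 in cord (44.7 to 97.5). Dhcr7 was the lowest in cord, with a median of 12.4 CPM per kb (9.40 to 15.7), below Sqle at 22.0, Fdft1 at 23.2 and Idi1 at 24.02, whose ranges overlapped. In the sorted microglia Insig1 was the lowest, with a median of 2.997 CPM per kb (0.0317 to 10.1). Srebf2 stood second in cord, at 36.4 CPM per kb (29.7 to 39.1), and had the lowest median in the stage microglia, at 4.44 (0.392 to 7.95), where its range overlapped those of the other 6 genes.

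The sorted libraries were compared to ask how the pathway stood in SOD1G93A microglia with low or high surface LAG-3 and in WT microglia. Hmgcs1, Dhcr7 and Srebf2 were higher than in WT in both fractions, and the other 4 genes were not called. In LAG-3-high microglia 3 of 7 genes were called higher than in WT and none lower, while 12.1% of all genes were called higher and 27.0% were called in either direction. In LAG-3-low microglia the counts were also 3 of 7 and 0, against 10.9% of all genes higher and 21.9% in either direction. The median log2 fold change of the 7 genes was 1.01 for LAG-3-high and 0.91 for LAG-3-low microglia, where all genes had medians of -0.08 and 0.04. Both comparisons used the same 4 WT libraries. The microglial sum given above was lower, and that of 6 endothelial markers higher, in every SOD1G93A library than in every WT library (5.86 to 25.9 CPM in WT). Of the 2 endothelial markers tested 1 was called higher and 1 lower in each fraction, and the part of these cells was not tested.

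Dhcr7, the enzyme of the last step, differed most. It was at 4.02, 0.348, 1.24 and 0 CPM in the WT libraries, where the count of 0 allows up to 0.190 CPM. It was at 14.2, 16.6, 14.7, 13.7 and 14.5 CPM in the LAG-3-low libraries and at 35.5, 40.9, 38.5, 26.8 and 30.0 CPM in the LAG-3-high libraries. The 3 groups did not overlap, and every LAG-3-high library lay above every LAG-3-low library, as did 8.95% of all genes. The log2 fold change against WT was 4.59 ± 0.95 (SE; adjusted p = 0.00433, edgeR) for LAG-3-high and 3.37 ± 0.89 (adjusted p = 0.0209, edgeR) for LAG-3-low microglia. Between the fractions it was 1.22 ± 0.75, which was not called in the fit of all 14 libraries (adjusted p = 0.613, edgeR). That fit shares 1 estimate of spread with the uneven WT libraries. It called 576 of all genes, and a fit of the libraries of these fractions alone called 1450. In the fit of these fractions alone the log2 fold change of Dhcr7 was 1.14 and the adjusted p was 0.000575 (edgeR). With DESeq2 on all libraries they were 1.16 and 0.446. In a fit of each fraction and WT alone, the call in LAG-3-low microglia was lost (log2 3.44, adjusted p = 0.124, edgeR) and that in LAG-3-high microglia stayed (4.55, adjusted p = 0.0319). Over all genes these 2 fits called 1721 and 2663, against 3614 and 4464 in the fit of all 14 libraries. Neutrophil transcripts were lower in every LAG-3-high library than in every LAG-3-low library, as given above. Markers of border macrophages or monocytes (83.29 to 153.9 against 209.2 to 427.2 CPM) and lymphocytes (0.491 to 1.20 against 4.13 to 31.5 CPM) were also lower in sum without overlap, and those of astrocytes (127.9 to 155.5 against 50.3 to 72.0 CPM) and endothelial cells (73.4 to 111.1 against 38.7 to 71.2 CPM) were higher. Of the 6 endothelial markers 4 were at or under 3 counts in every library of the high fraction. Of the 2 tested between the fractions 0 were called and 1 had a log2 fold change above 0. The part of these cells in the difference was not tested.

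Hmgcs1, the first enzyme of the pathway among the 7, was at 3.51, 27.9, 39.2 and 22.0 CPM in WT libraries. The LAG-3-low libraries were at 53.1, 65.3, 52.9, 49.1 and 50.2 CPM and the LAG-3-high libraries at 52.3, 67.4, 66.0, 65.6 and 82.3 CPM. Every SOD1G93A library lay above the WT range, as it did for 3 of the 7 genes in each fraction and for 12.4% (high) and 9.78% (low) of all genes, and the fractions overlapped. Against WT it was 2.88-fold higher in the high fraction (log2 1.53 ± 0.47, adjusted p = 0.0324, edgeR) and 2.34-fold higher in the low fraction (log2 1.23 ± 0.46, adjusted p = 0.0821, edgeR). The call in LAG-3-low microglia was lost without any 1 of 7 of the 9 libraries, WT replicates 1 and 4 and each of the 5 LAG-3-low libraries.

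Srebf2, the transcription factor gene, was at 22.2, 19.0, 26.6 and 14.1 CPM in WT libraries. The LAG-3-low libraries had 39.0, 45.3, 74.9, 35.5 and 35.4 CPM and the LAG-3-high libraries 58.5, 33.6, 49.9, 39.9 and 50.4 CPM. The WT libraries were below all others and the fractions overlapped. Srebf2 exceeded WT 2.27-fold in the high fraction (log2 1.18 ± 0.32, adjusted p = 0.0189, edgeR) and 2.25-fold in the low fraction (log2 1.17 ± 0.32, adjusted p = 0.0249, edgeR). Without LAG-3-low replicate 3, the highest library, the second log2 fold change was 0.92 and did not reach the minimum of 1.

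Idi1, Sqle and Insig1 varied widely among the WT libraries and were not called. Insig1, the sterol-sensing anchor, was at 0.458, 0.0869, 27.7 and 0.443 CPM in WT, so that WT replicate 3 lay above every other sorted library and the other 3 lay below every SOD1G93A library. In LAG-3-low libraries Insig1 was at 5.85 to 13.9 CPM (median 7.52) and in LAG-3-high libraries at 2.40 to 14.9 CPM (median 9.33). Sqle was at 0, 3.91, 46.8 and 0 CPM in WT, at 7.09 to 44.3 CPM (median 21.3) in the low fraction and at 6.82 to 37.5 CPM (median 20.1) in the high fraction. The WT counts of 0 allow up to 0.153 CPM in replicate 1 and 0.190 CPM in replicate 4. Idi1 was at 0, 21.4, 40.1 and 1.58 CPM in WT, at 17.5 to 32.1 CPM in the low and at 15.3 to 35.2 CPM in the high fraction, with the WT libraries both highest and lowest. Fdft1 was at 4.27, 15.3, 9.41 and 8.42 CPM in WT, at 9.36 to 29.0 CPM in the low and at 9.58 to 25.6 CPM in the high fraction, and was not called (adjusted p = 0.283 and 0.175, edgeR). Without WT replicate 3, Insig1 (log2 4.86 for LAG-3-high and 4.68 for LAG-3-low) and Sqle (4.09 and 4.22) were called higher in both fractions as well, which gave 5 of 7 genes in each. Over all genes 5358 and 4498 were called without that library, against 4464 and 3614 with all libraries. That library also had the highest WT sums for markers of dividing cells (240.6 against 0.190 to 23.7 CPM in the other 3) and of border macrophages or monocytes (595.7 against 46.7 to 161.3 CPM). The same held for markers of astrocytes (222.4 against 89.5 to 119.8 CPM) and of oligodendrocytes (173.7 against 43.9 to 102.9 CPM). The part of these cells was not tested.

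**Figure D1:**
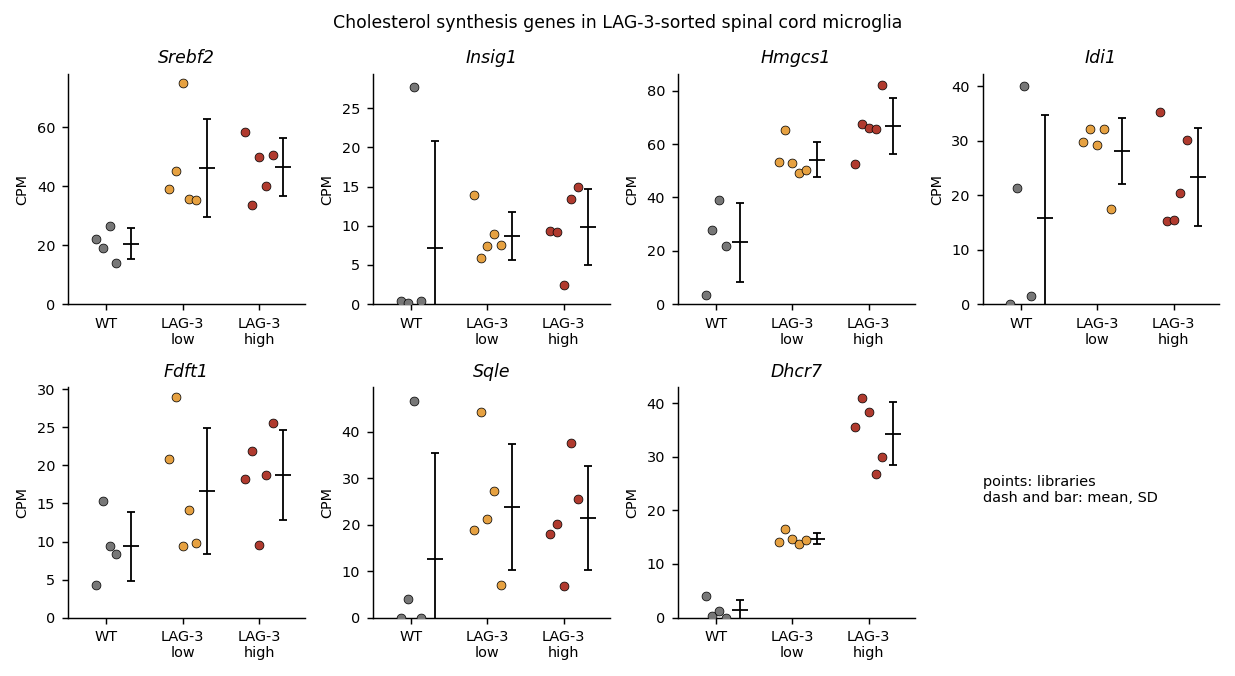
Levels of the 7 genes in CPM (y axis, linear, from 0) in each library (points), 4 of WT and 5 of each SOD1G93A fraction, with the group mean and SD, whose lower end is cut at 0 where it would be negative. Dhcr7 separates all 3 groups, Hmgcs1 and Srebf2 separate WT from both fractions, and 1 WT library stands far above the other 3 for Insig1 and Sqle.

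Between the high and low fractions none of the 7 genes was called, while 3.49% of all genes were. Without adjustment, none of the 7 had p under 0.05 in edgeR and the smallest was that of Dhcr7 at 0.125. The log2 fold changes of the other 6 genes were between -0.27 (Idi1) and 0.30 (Hmgcs1), with SEs of 0.30 to 1.25. Of the 5 lists of lipid genes, those of uptake with lysosomal release and of efflux held called genes. Npc2, which moves cholesterol out of lysosomes, was at 1437 against 547 CPM (log2 1.39, adjusted p = 0.000863, edgeR). The chaperone of lipoprotein receptors, Lrpap1, was at 907 against 437 CPM, and the exporter Abca1 was at 387 against 179 CPM. Lrp8, a lipoprotein receptor, was lower, at 0.0253 against 1.86 CPM. Of the uptake and lysosomal list 3 of 14 genes tested were called higher and 1 lower, of the efflux, storage and LXR list 1 of 12 was higher, and of the 13 other genes of sterol synthesis, the 8 of SREBP control and the 9 of fatty acid synthesis none was called.

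Against WT, the lists of lipid genes differed in their counts, which stand against 12.1% and 10.9% of all genes called higher. Of the efflux, storage and LXR list 8 of 12 genes were called higher in LAG-3-high and 7 of 12 in LAG-3-low microglia, with none lower. Its smallest adjusted p-values in both fractions belonged to Apoc1, Ch25h and Apoe, an apolipoprotein, a cholesterol hydroxylase and the main lipid carrier of the brain. Apoe was at 87179 CPM in the high fraction, 27339 CPM in the low fraction and 1764 CPM in WT, and Ch25h at 194, 174 and 0.352 CPM. Of the 9 genes of fatty acid synthesis 6 and 5 were called higher, led by the desaturase Scd2 at 172 and 113 against 20.1 CPM, and Fads1 was called lower in LAG-3-low microglia. Of the 13 other genes of sterol synthesis 2 were higher in each fraction, Lss (12.5 and 8.27 against 0.313 CPM) and Sc5d (42.0 and 46.8 against 17.2 CPM), and Ebp was lower in LAG-3-low microglia (53.3 against 119 CPM). Of the 8 genes of SREBP control Erlin2 and Srebf1 were higher in both fractions and Mbtps2 was lower in LAG-3-low microglia. Of the 14 genes of uptake and lysosomal release, Lrpap1, Lipa and Npc2 were higher in LAG-3-high microglia, and in LAG-3-low microglia 3 were higher and 1, Npc1, was lower.

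Fold changes against WT moved with transcript length over all genes. In LAG-3-high against WT the median log2 fold change was -0.93 for the shortest quartile of genes (up to 1329 bases) and 0.24 for the third quartile (2643 to 4417 bases), which held 5 of the 7 genes. In LAG-3-low against WT these medians were -0.63 and 0.28. With an offset for transcript length and GC content in the fit, the median of all genes became -0.65 and -0.70. Of the 7 genes only Dhcr7 was called against WT, in LAG-3-high microglia (log2 3.24, adjusted p = 0.0182, edgeR) and not in LAG-3-low microglia (1.96, adjusted p = 0.102). Over all genes the calls with the offset were 5623 in LAG-3-high and 5855 in LAG-3-low microglia, against 4464 and 3614 without it. Relative to those medians all 7 genes still lay higher in both comparisons, Hmgcs1 by 1.44 and 1.06 and Srebf2 by 0.27 and 0.31, although the offset values of Srebf2 themselves were -0.37 and -0.39.

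The stage libraries were compared to ask how the pathway changed from P120 to P140 with and without LAG-3. In LAG-3+/+ microglia Hmgcs1, Insig1 and Dhcr7 were lower at P140 than at P120, by 2.54- to 3.11-fold. In LAG-3-/- microglia no gene of the 7 was called between the ages, where 0% of all genes were called. At P140 Hmgcs1 and Dhcr7 were then higher in LAG-3-/- than in LAG-3+/+ microglia. Sqle, Idi1 and Fdft1 were not called in any of these comparisons. In LAG-3+/+ microglia 3 of 7 genes were called lower and none higher, against 15.5% of all genes lower and 27.4% in either direction, and their median log2 fold change was -1.35 against -0.22 for all genes. The ranges of 4 genes lay wholly lower at P140, as did those of 25.4% of all genes.

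Hmgcs1 was at 70.2, 72.9 and 29.2 CPM at P120 and at 23.6, 10.9 and 20.8 CPM at P140 in LAG-3+/+ microglia. In LAG-3-/- microglia it was at 78.3, 60.9 and 75.2 CPM at P120 and at 56.3, 52.9 and 41.7 CPM at P140. The ages did not overlap in either genotype, and the P140 LAG-3+/+ libraries were the lowest of all 12. The log2 fold change with age was -1.64 ± 0.38 in LAG-3+/+ (adjusted p = 0.0142, edgeR) and -0.51 ± 0.37 in LAG-3-/- microglia (adjusted p = 0.774). At P140 Hmgcs1 was 2.72-fold higher in LAG-3-/- than in LAG-3+/+ microglia (log2 1.45 ± 0.37, adjusted p = 0.0573, edgeR).

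Dhcr7 was at 28.9, 23.6 and 13.2 CPM at P120 and at 11.5, 6.53 and 7.64 CPM at P140 in LAG-3+/+ microglia, and at 16.4, 16.9 and 12.9 CPM and then 13.9, 27.7 and 20.7 CPM in LAG-3-/- microglia. All 3 P140 LAG-3+/+ libraries lay below the other 9. The log2 fold change with age was -1.36 ± 0.40 (adjusted p = 0.0373, edgeR) in LAG-3+/+ and 0.43 ± 0.39 (adjusted p = 0.847) in LAG-3-/- microglia, and at P140 Dhcr7 was 2.43-fold higher without LAG-3 (log2 1.28 ± 0.40, adjusted p = 0.0911, edgeR).

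Insig1 was at 19.0, 27.1 and 17.3 CPM at P120 and at 6.14, 13.9 and 4.92 CPM at P140 in LAG-3+/+ microglia, without overlap (log2 -1.35 ± 0.48, adjusted p = 0.0748, edgeR). In LAG-3-/- microglia it was at 11.8, 15.5 and 20.1 CPM and at 9.62, 15.7 and 24.02 CPM, with overlapping ages, and the genotypes overlapped at P140 (log2 0.98 ± 0.48, adjusted p = 0.236, edgeR). Srebf2 was at 40.3, 34.3 and 25.0 CPM at P120 and at 21.2, 1.99 and 12.4 CPM at P140 in LAG-3+/+ microglia. These ranges did not overlap, yet the difference missed the threshold (log2 -1.48 ± 0.61, adjusted p = 0.114, edgeR), and P140 replicate 2 lay far below the other libraries. In LAG-3-/- microglia Srebf2 was at 35.9, 23.3 and 22.9 CPM and at 19.0, 22.1 and 21.3 CPM (log2 -0.40 ± 0.60, adjusted p = 0.930). Hmgcs1 and Srebf2 were the 2 genes of the 7 with all P140 libraries below all P120 libraries in LAG-3-/- microglia, where 7.37% of all genes were.

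Of the enzymes that were not called, Sqle was at 23.7, 31.0 and 13.96 CPM at P120 and 46.1, 10.1 and 28.5 CPM at P140 in LAG-3+/+ microglia, and at 15.5 to 32.0 and 23.2 to 31.1 CPM in LAG-3-/- microglia. Fdft1 was at 8.03 to 18.8 and 9.06 to 20.1 CPM in LAG-3+/+, and at 6.06 to 21.6 and 16.8 to 25.9 CPM in LAG-3-/- microglia. Idi1 was at 29.9, 41.1 and 22.6 CPM at P120 and 30.7, 8.07 and 30.3 CPM at P140 in LAG-3+/+ microglia, and at 9.73, 12.5 and 20.3 CPM and 31.6, 27.4 and 14.3 CPM in LAG-3-/- microglia. At P120 the LAG-3-/- libraries were all below the LAG-3+/+ libraries for Idi1 (log2 -1.14 ± 0.52), 1 of 7 genes against 6.63% of all genes, but the adjusted p was 1 (edgeR).

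**Figure D2:**
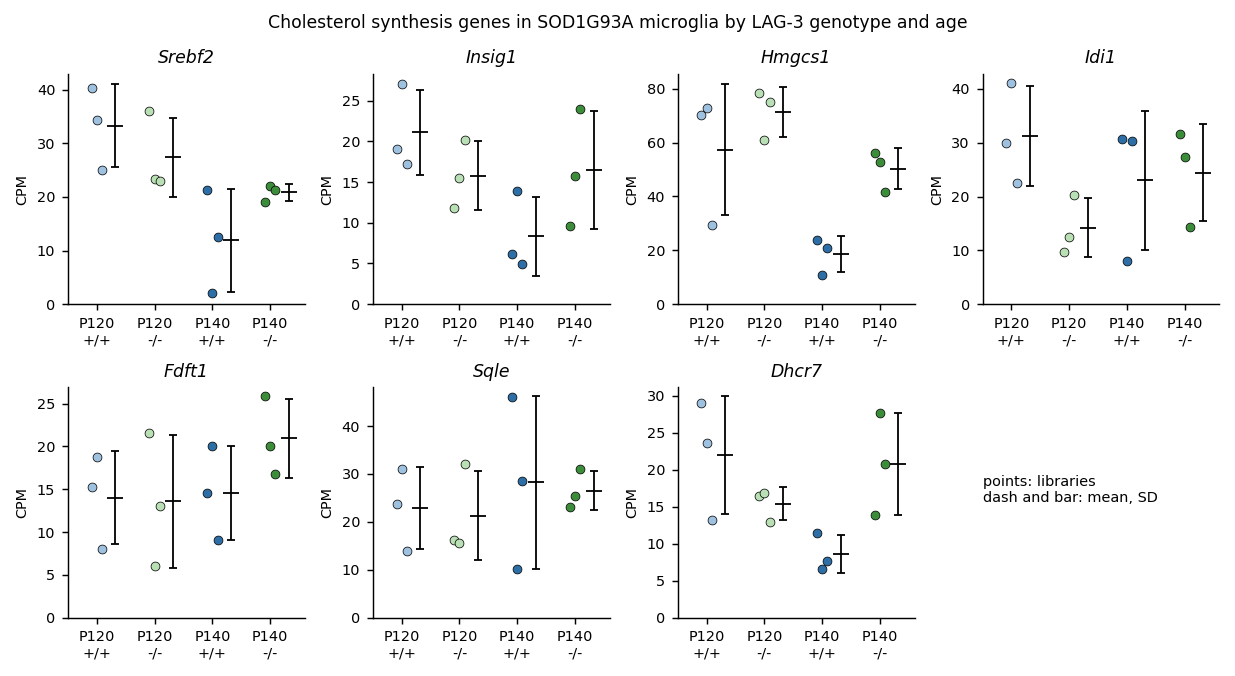
Levels of the 7 genes in CPM (y axis, linear, from 0) in 3 SOD1G93A microglia libraries of each LAG-3 genotype at P120 and P140 (points), with the group mean and SD. For Hmgcs1 and Dhcr7 the P140 LAG-3+/+ libraries sit below those of the other 3 groups, while Fdft1 and Sqle overlap in all groups.

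At P120 no gene of the 7 was called between genotypes, as 0.0107% of all genes were, and between the ages in LAG-3-/- microglia 0% of all genes were called by edgeR, with 1658 genes at an unadjusted p under 0.05 and 464 called by DESeq2. Without adjustment, none of the 7 genes had p under 0.05 in either (the smallest were 0.0516 and 0.159, both for Idi1), and DESeq2 called none of the 7. At P140 2 of 7 genes were called higher in LAG-3-/- microglia and none lower, against 7.22% of all genes higher and 10.2% in either direction. Their ranges did not overlap, which held for 12.2% of all genes in that direction. The difference between the genotypes in the change with age, tested as an interaction, was called for none of the 7 and for 0.171% of all genes. Its estimate was above 0 for all 7 genes, with a median of 1.13 against 0.18 for all genes. It was 1.79 ± 0.56 for Dhcr7 (adjusted p = 0.231, edgeR; unadjusted p = 0.00833), which was called by DESeq2 (log2 1.69, adjusted p = 0.0400). A different course with age in the 2 genotypes was therefore not shown for the 7 genes by edgeR. DESeq2 called 1317 of all genes in the interaction, against 32 by edgeR.

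The genes that control SREBP moved in the same direction in LAG-3+/+ microglia. Of the 8 tested 6 were called lower at P140 than at P120 and none higher, with a median log2 fold change of -1.34. Of all genes 15.5% were called lower and 11.9% higher, with a median of -0.22. The lists of lipid genes were not examined with the length and GC offset. Srebf1, the sister gene of Srebf2 that serves fatty acid synthesis, was at 7.74 against 42.3 CPM (adjusted p = 0.00529, edgeR), the ubiquitin ligase gene Rnf139 was at 20.8 against 61.8 CPM, and Mbtps1, whose protease makes the first cut in SREBP, was at 20.1 against 79.0 CPM. Scap itself was among the 6, at 5.36 against 46.9 CPM. Of the 14 other genes of sterol synthesis Hsd17b7 was lower (0.115 against 10.7 CPM, adjusted p = 0.0079, edgeR) and Ebp was higher (117 against 58.6 CPM). Of 10 genes of fatty acid synthesis 3 were lower, Fads1, Acly and Scd2. In uptake and lysosomal release 4 of 13 were lower, Gramd1a, Lrp1 and Mylip with the smallest adjusted p-values, and 3 were higher. In efflux, storage and LXR 2 of 12 were lower, Abca7 and Abca1, and 2 were higher, with Apoe at 75665 against 18228 CPM.

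At P140 some of these genes were higher in LAG-3-/- than in LAG-3+/+ microglia, where 7.22% of all genes were called higher. Of SREBP control 3 of 8 were called, Srebf1 (26.8 against 7.74 CPM), Mbtps1 (66.5 against 20.1 CPM) and Rnf139 (42.7 against 20.8 CPM). Fatty acid synthesis had 3 of 10 higher, Fads1, Acly and Scd2, uptake had Gramd1a and Lrp1 of 13, efflux had Abca1 and Soat1 of 12, and sterol synthesis had Hsd17b7 of 14 (5.90 against 0.115 CPM). None of these lists had a gene called lower, and in the other stage comparisons and the interaction no gene of the 5 lists was called.

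Fold changes of all genes depended on transcript length in these comparisons too. From P120 to P140 in LAG-3+/+ microglia the median log2 fold change was 0.45 in the second quartile of genes by length and -1.05 in the longest quartile. The third quartile, which held 6 of the 7 genes, was at -0.28, and Srebf2 was in the longest. At P140 LAG-3-/- against LAG-3+/+ had medians of -0.30 in the second and 0.78 in the longest quartile. The P140 LAG-3+/+ libraries had 18896 to 20489 genes detected, against 24136 to 24942 in the P120 LAG-3+/+ libraries, and the P140 LAG-3-/- libraries had 20260, 23896 and 23459. Without the first of these, LAG-3-/- replicate 1, the genes called over the whole table rose from 1908 to 4139 between genotypes at P140, with 2 of the 7 as before, and from 32 to 1713 in the interaction, with 1 of the 7. With the offset for length and GC content no gene of the 7 was called in either comparison. Over all genes 4698 were called with age and 1141 between genotypes under this offset, against 5118 and 1908 without it. The log2 fold changes with age were then -0.83 for Hmgcs1, -0.86 for Dhcr7 and -0.81 for Insig1, with the median of all genes at 0.38. Between genotypes at P140 they were 0.88 for Hmgcs1 and 0.86 for Dhcr7, with the median of all genes at -0.26. Relative to those medians Hmgcs1 and Dhcr7 fell by 1.21 and 1.24 with age and lay 1.15 and 1.13 higher without LAG-3, against -1.42 and -1.14, and 1.30 and 1.13, in the fit without the offset. The calls at P140 between genotypes also fell to 0 in a fit of these groups alone, which called 0 of all genes. They fell to 0 too when P140 LAG-3+/+ replicate 2 or 3 or LAG-3-/- replicate 2 or 3 was left out. Those fits called 663, 763, 95 and 151 of all genes, in that order, against 1908 with all libraries. The calls with age fell to 1, Hmgcs1, without P120 LAG-3+/+ replicate 1 or 2 or P140 LAG-3+/+ replicate 3. Over all genes 3334, 3218 and 3734 were then called, against 5118. At P140 the sum of 6 markers of dividing cells did not overlap between genotypes, at 71.41 to 219.7 CPM in LAG-3+/+ and 228.5 to 481.2 CPM in LAG-3-/- libraries, with 1 of 6 called higher. At P120 that sum lay the other way, also without overlap and with 0 of 6 called. It was at 143.9 to 313.2 CPM in LAG-3+/+ and 73.96 to 123.5 CPM in LAG-3-/- libraries. With age in LAG-3+/+ microglia the sum of 8 markers of border macrophages or monocytes did not overlap either, at 10.08 to 19.89 CPM at P120 and 108.4 to 149 CPM at P140, with 1 of 6 tested called higher. The sum of 6 endothelial markers was at 43.2 to 55.55 CPM at P120 and 56.26 to 76.9 CPM at P140, with 0 of 2 tested called. Neutrophil transcripts summed to 1741 to 2574 CPM in P120 LAG-3+/+, 2.68 to 6.58 in P120 LAG-3-/-, 3.84 to 3479 in P140 LAG-3+/+ and 4.02 to 4611 in P140 LAG-3-/- libraries. The part of these cells in the differences was not tested.

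**Figure D3:**
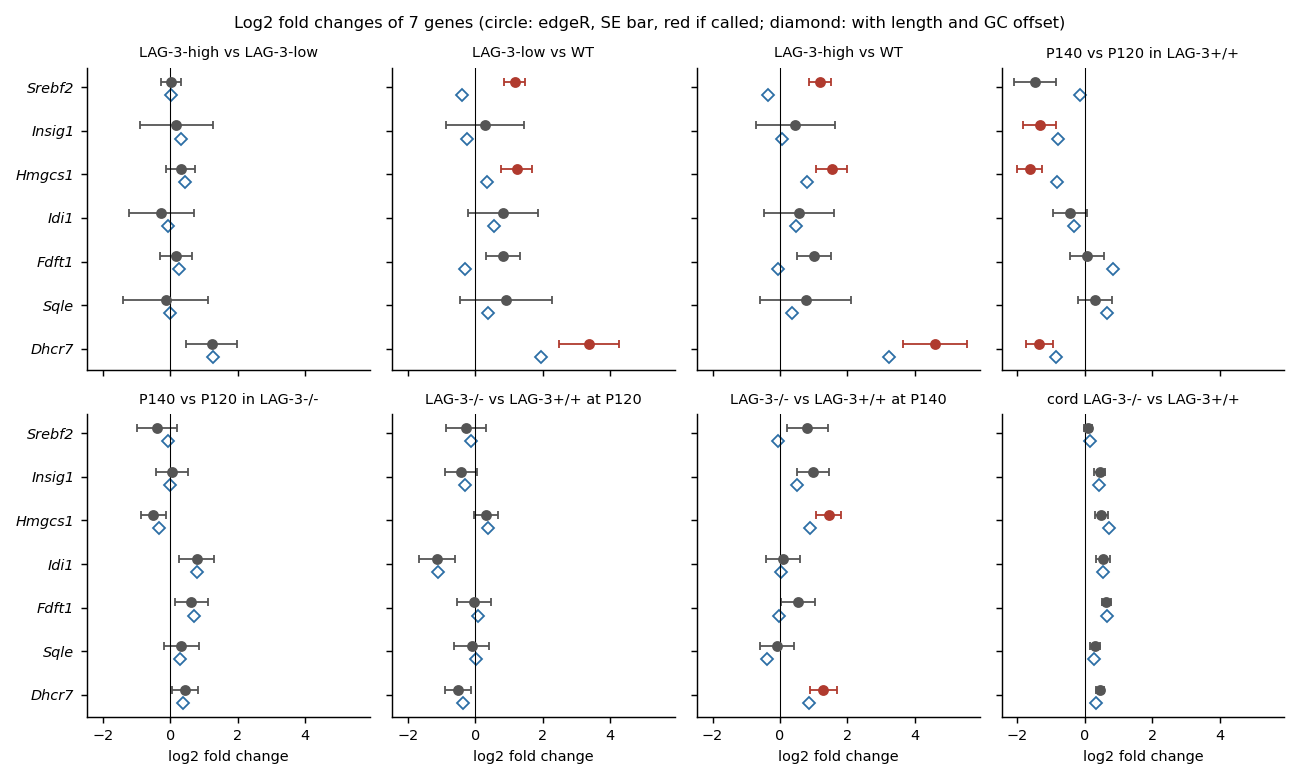
Log2 fold changes (x axis) of the 7 genes in 8 comparisons, from edgeR with SE bars (circles, red where called) and from the fit with a transcript length and GC offset (diamonds). Srebf2 against WT is 1.18 and 1.17 without the offset and -0.37 and -0.39 with it, while Dhcr7 stays above 1 against WT in both fits.

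Whole cord at P140 was compared to see the pathway in the tissue that the microglia came from. Here all 7 genes had a higher mean in LAG-3-/- than in LAG-3+/+ cord, by 1.07- to 1.55-fold, and none reached the minimum log2 fold change of 1, while 7.52% of all genes were called with it. Without a minimum fold change 5 of 7 were higher and none lower, Fdft1, Dhcr7, Hmgcs1, Insig1 and Idi1, where 23.1% of all genes were higher. Their median log2 fold change was 0.45 against 0.00 for all genes. In bulk tissue fewer cells of a type and less RNA per cell cannot be told apart.

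Fdft1, squalene synthase, was at 55.3, 67.2 and 70.4 CPM in LAG-3+/+ and at 90.7, 117 and 91.1 CPM in LAG-3-/- cord, 1.55-fold higher (log2 0.63 ± 0.13, adjusted p = 0.00357, edgeR). Dhcr7 was at 27.8, 33.6 and 33.7 against 43.7, 46.5 and 39.4 CPM (log2 0.45 ± 0.12, adjusted p = 0.0105, edgeR). Hmgcs1 was at 183, 232 and 235 against 258, 399 and 258 CPM (log2 0.49 ± 0.18, adjusted p = 0.0528, edgeR). For these 3 genes and Insig1 the genotypes did not overlap, which was the case for 4 of 7 genes and for 25.5% of all genes in that direction.

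Insig1 was at 55.5, 79.7 and 75.6 against 84.7, 117 and 84.3 CPM (log2 0.44 ± 0.17, adjusted p = 0.0592, edgeR), and Idi1 at 44.3, 58.3 and 62.5 against 71.8, 106 and 62.0 CPM (log2 0.54 ± 0.21, adjusted p = 0.0701, edgeR). Sqle was at 45.0, 60.7 and 63.0 against 60.4, 81.2 and 67.7 CPM and was not called (log2 0.31 ± 0.15, adjusted p = 0.119, edgeR). Srebf2 was at 151, 190 and 180 against 162, 195 and 199 CPM (log2 0.10 ± 0.13, adjusted p = 0.588, edgeR), so its genotypes overlapped where those of Hmgcs1, Insig1, Fdft1 and Dhcr7 did not. LAG-3-/- replicate 2 was the highest library for Hmgcs1, Insig1, Fdft1, Idi1, Sqle and Dhcr7. Without it, or without LAG-3+/+ replicate 1, the lowest library for each of the 7, the count fell from 5 to 2, and Fdft1 and Dhcr7 were those called.

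**Figure D4:**
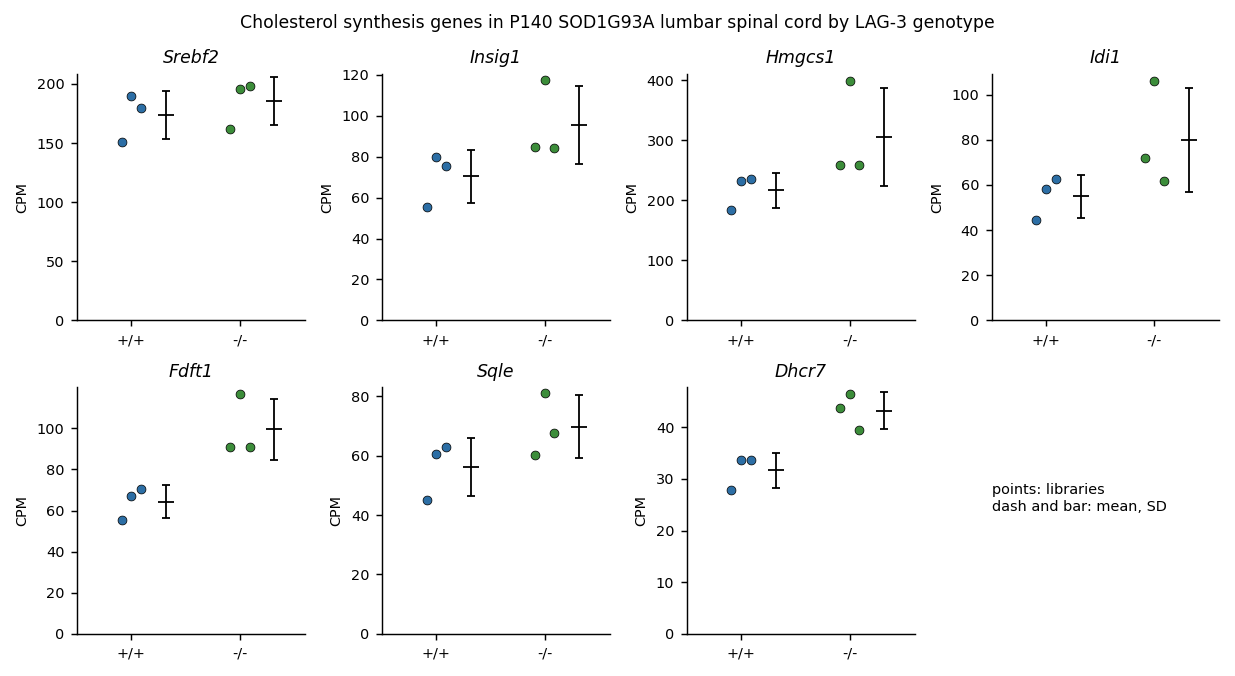
Levels of the 7 genes in CPM (y axis, linear, from 0) in 3 LAG-3+/+ and 3 LAG-3-/- lumbar cord libraries at P140 (points), with the group mean and SD. The genotypes separate for Hmgcs1, Insig1, Fdft1 and Dhcr7 and overlap for Idi1, Sqle and Srebf2.

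Some other genes of the pathway changed more in cord. Pmvk, Mvd and Fdps, enzymes between mevalonate and squalene, were called higher, at 44.7 against 19.5, 23.3 against 11.2 and 67.1 against 32.7 CPM. They were 3 of 14 other genes of sterol synthesis, none of which was called lower, against 4.37% of all genes higher and 3.15% lower. Without a minimum fold change 10 of the 14 were higher and 1, Hsd17b7, was lower. Of the 8 genes of SREBP control 0 were then higher and 4 lower, Srebf1 among them at 135 against 185 CPM. Over all 17702 genes 8330 were then called in either direction, 4096 of them higher (23.1% of all genes). Abca1, the exporter, was lower at 77.3 against 257 CPM and was the only gene called of the 14 for efflux, storage and LXR. No gene of the 16 for uptake and lysosomal release or of the 12 for fatty acid synthesis was called. The lists were not examined with the length and GC offset in cord either.

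Marker sums of several cell types separated the genotypes in cord. The 7 oligodendrocyte markers (Mbp, Mog, Mag, Mobp, Cnp, Cldn11 and Ermn) summed to 11190 to 12350 CPM in LAG-3+/+ and 17410 to 25270 CPM in LAG-3-/- cord, with 4 of 7 higher without a minimum fold change and none lower. Astrocyte markers summed to 14340 to 16140 against 9289 to 14080 CPM, with 3 of 7 lower and 1 higher, endothelial markers to 192.1 to 216.5 against 163.4 to 186.1 CPM, with 2 of 6 lower and 2 higher, and markers of dividing cells to 24.98 to 31.3 against 17.87 to 20.13 CPM, with 3 of 6 lower. These counts stand against 8330 of 17702 genes called in either direction without a minimum fold change, 4096 of them higher. The microglial sums overlapped, at 643.2 to 813.1 against 515.7 to 723.3 CPM. Per 1000 CPM of the oligodendrocyte sum, the 7 genes together were at 48.8, 64.5 and 58.3 CPM in LAG-3+/+ and at 30.5, 51.8 and 46.04 CPM in LAG-3-/- cord, with overlapping genotypes. The part of these cell types in the result was not tested. Over all genes the median log2 fold change in cord was 0.47 in the shortest and -0.40 in the longest quartile by length, and 0.17 and -0.09 in the second quartile and the third, which held 6 of the 7. With the length and GC offset, Fdft1 (log2 0.67, adjusted p = 0.00522), Hmgcs1 (0.72, 0.0133), Dhcr7 (0.33, 0.0651) and Idi1 (0.55, 0.0703) were under an adjusted p of 0.1 and Insig1 was not (0.42, 0.107; edgeR).

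The 7 genes varied together to different degrees. After removal of group means, Pearson's r of log2 CPM was above 0 in all 21 pairs of genes in the 6 cord libraries (median 0.888), in 16 of 21 pairs in the 14 sorted libraries (median 0.329) and in 15 of 21 in the 12 stage libraries (median 0.248). In the sorted libraries Idi1 followed Hmgcs1 most closely (r = 0.903) and Dhcr7 ran against Hmgcs1 (r = -0.569). Libraries share depth and sample quality across genes, and these values are descriptions. Over all 14 sorted libraries the genes most like the mean of the 7 among 8900 genes of at least 10 CPM were Tmem123 (r = 0.969), Serpinb6a (0.967), Rgs3 (0.964), Dvl2 (0.964) and Apmap (0.963). By rank (Spearman) their values were lower, at 0.855, 0.687, 0.582, 0.644 and 0.780. Over the 12 stage libraries the genes most alike were Rnf26 (r = 0.910), Ripk1 (0.907), Arfip2 (0.902), Itgb1 (0.900) and Atosb (0.898) among 8664 genes. By rank they were at 0.797, 0.874, 0.881, 0.839 and 0.881, and no gene was among the 5 in both tables.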

How the data were processed

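RNA-seq of 32 mouse libraries was used. Per the labels and the study's methods, the authors trimmed reads with Trim Galore 0.6.7, quantified them with Salmon 1.9.0 against GRCm39 and summed them per gene with tximport under R 4.2.1. They deposited estimated counts per Ensembl gene, neither whole nor normalized, which were rounded here. The annotation release is not given in the sources used here, and symbols, coordinates and transcript lengths came from GENCODE vM39, which lacked 71, 66 and 71 identifiers (0.0479%, 0.0514% and 0.0145% of the counts of the sorted, stage and cord tables). Rows without a symbol were kept in library sizes.

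Each table was fitted in edgeR 4.0.16 (R 4.3.3): filterByExpr with a minimum count of 10 and a minimum total of 15, TMM, and the robust quasi-likelihood test over all groups of the table. Common dispersions were 0.691, 0.603 and 0.0247, so the sorted and stage tables resolve only large differences. SEs are the log2 fold change over the square root of F. Groups came from the labels. Nothing in the labels says that replicates were separate animals, so p-values measure the spread between these libraries, and a floor of 3 counts covers counting error only.

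The 7 genes and all lists were chosen with earlier results of these data known, and some genes of the lists are not reported here and were left out of the counts and sums. The 7 genes were named in every comparison; of each list, counts and the called genes with the 3 smallest adjusted p-values. No library was left out and no identical libraries were found. Alternatives were DESeq2 1.42.0, RLE or no size factors, other filters and thresholds, the listed sex, the replicate block, the 2 groups compared alone, an offset for transcript length and GC content (a natural spline of each, 5 degrees of freedom, with an intercept, fitted per library, so that each library's mean deviation was removed too) and each library left out. The scripts were tested on simulated data. Flow cytometry, imaging and behavioural data were not analysed here.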

Additional observations from a re-analysis of the deposited data

Results flagged for a closer look

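In groups of 4 or 5 libraries, 5 of the 21 combinations of gene and group had 1 library that lay far from the rest by Dixon's test, which flags about 1 in 20 by chance. WT replicate 3 stood out for Sqle at 46.8 CPM, with the other 3 WT libraries at 0 to 3.91 CPM, and for Insig1 at 27.7 CPM, with the others at 0.0869 to 0.458 CPM. LAG-3-low replicate 2 was high for Hmgcs1 at 65.3 CPM, above 49.1 to 53.1 CPM. LAG-3-low replicate 3 was high for Srebf2 at 74.9 CPM, above 35.4 to 45.3 CPM, and LAG-3-low replicate 5 was low for Idi1 at 17.5 CPM, below 29.1 to 32.1 CPM. No gene of the 7 had every library of 1 genotype moving against every library of the other with age, or at the other age with genotype.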

How the results depend on the processing

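For single genes, 1035 of 1169 values in the alternative fits kept direction and side of the threshold, 52 lost a call, 16 gained one and 66 changed sign. No setting or left-out library gave a call of the 7 genes with age in LAG-3-/- microglia or between genotypes at P120, and in cord only dropping the minimum fold change did, with 5. The cause of a change was not tested except where a threshold or the number of libraries made it.

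With the length and GC offset the calls fell to 1 (LAG-3-high against WT), 0 (LAG-3-low against WT), 0 (age in LAG-3+/+) and 0 (genotype at P140). Calls over all genes were then 5623, 5855, 4698 and 1141, against 4464, 3614, 5118 and 1908 in the main fit. With only the groups compared, calls were 1 between the LAG-3 fractions (Dhcr7), 0 for LAG-3-low against WT and 0 for genotype at P140. Over all genes these fits called 1450, 1721 and 0, against 576, 3614 and 1908 in the main fit. Genotype at P140 gave 0 calls at an adjusted p under 0.05, 1 without the filter and 1 with the listed sex. Over all genes these settings called 642, 1386 and 1346. DESeq2 called 1 gene in the interaction. Deviations of same-numbered libraries correlated at a mean r of 0.0140, -0.00325 and 0.000989 in the sorted, stage and cord tables. No pair was over 0.1. The sorted mean includes pairs of WT with SOD1G93A libraries, which cannot share an animal. Between the SOD1G93A fractions r was 0.0195, 0.0666, -0.00134, 0.0674 and 0.0094 for replicates 1 to 5. Such low values cannot tell whether same-numbered fractions shared an animal, because the spread between libraries was wide (common dispersion 0.691). With the replicate block, genotype at P140 gave 1 call instead of 2, and 814 instead of 1908 over all genes. In LAG-3-low against WT, 2879 genes were called without LAG-3-low replicate 3 and 4498 without WT replicate 3, against 3614 with all libraries. With 1 library left out, calls ranged from 3 to 5 (LAG-3-high against WT), 1 to 5 (LAG-3-low against WT; 1 without LAG-3-low replicate 3, 5 without WT replicate 3), 1 to 3 (age in LAG-3+/+), 0 to 2 (genotype at P140), 0 to 1 (interaction; 1 without P140 LAG-3-/- replicate 1) and, chosen after seeing the data, 2 to 5 in cord without a minimum fold change.

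Signs changed as follows (log2 fold changes). LAG-3-high against LAG-3-low gave Srebf2 -0.043 with DESeq2, -0.047 with RLE, -0.35 with library totals and -0.059 with only those groups; with library totals Hmgcs1 -0.069, Insig1 -0.21 and Fdft1 -0.20, where the median of all genes was -0.40; Sqle 0.22 with the replicate block; and Insig1 -0.12 with listed sex. With the length and GC offset, against WT, LAG-3-high gave Fdft1 -0.062 and Srebf2 -0.37 and LAG-3-low Insig1 -0.25, Fdft1 -0.31 and Srebf2 -0.39. In the stage table that offset gave Insig1 -0.0065 for age in LAG-3-/-, Sqle 0.018 and Fdft1 0.084 for genotype at P120, Fdft1 -0.046 and Srebf2 -0.062 for genotype at P140, and Sqle -0.39 and Fdft1 -0.13 in the interaction. Library totals gave Sqle -0.13 and Fdft1 -0.43 for age in LAG-3+/+ (median of all genes -0.70), Insig1 -0.16 for age in LAG-3-/-, Sqle 0.032 and Fdft1 0.092 for genotype at P120, Sqle 0.21 for genotype at P140 and Srebf2 -0.026 in cord. The interaction of Sqle was -0.073 with DESeq2 and -0.076 with RLE.

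With 1 library left out, signs changed within these ranges. Sorted: LAG-3-high against LAG-3-low, Insig1 -0.023 to 0.43, Sqle -0.43 to 0.21 and Srebf2 -0.081 to 0.26; LAG-3-low against WT, Insig1 -0.13 to 4.68. Age in LAG-3+/+: Fdft1 -0.25 to 0.32 and Sqle -0.25 to 0.70. Age in LAG-3-/-: Insig1 -0.31 to 0.33. Genotype at P120: Fdft1 -0.55 to 0.31, Hmgcs1 -0.0036 to 0.52 and Sqle -0.53 to 0.17. Genotype at P140: Idi1 -0.32 to 0.36 and Sqle -0.49 to 0.46. Interaction: Sqle -0.38 to 0.57. Cord: Srebf2 -0.00035 to 0.18. None of these differences was called with all libraries.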
